A study of Homo sapiens with 12 samples.

Results

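The genes of the MHC class II system described here are the classical chains HLA-DRA, HLA-DRB1, HLA-DPA1, HLA-DPB1, HLA-DQA1 and HLA-DQB1, the peptide editor HLA-DMA and HLA-DMB, the invariant chain CD74 and the transactivator CIITA. They were chosen by name, and all 10 are among the 25146 genes of the deposited table. RNA sequencing libraries of 2 human T-cell acute lymphoblastic leukaemia lines, Jurkat and Molt-4, were compared with and without chidamide, a benzamide inhibitor of histone deacetylases. The groups were Molt-4 with 2 µM chidamide, untreated Molt-4, Jurkat with 2 µM chidamide and untreated Jurkat, with 3 libraries each. All 4 groups were grown in RPMI medium with fetal bovine serum. The treated replicates 1, 2 and 3 carry labels of 48, 49 and 50 h, while the treatment protocol gives 48 h. No vehicle is named for the untreated cells, and nothing in the labels ties the replicates to separate cultures, so the p-values speak only of how far these libraries scatter.

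MHC class II molecules are pairs of an alpha and a beta chain that carry peptides to the cell surface for recognition by CD4+ T cells. The genes share a promoter module, the X and Y boxes, to which the RFX complex, CREB and NF-Y bind. CIITA binds no DNA itself, is recruited by these factors, and is the classical limiting factor for class II transcription. Resting and leukaemic T cells generally make little of it, while B cells and dendritic cells make it all the time and many other cells after interferon gamma.

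The module can be read in the reference promoters. RefSeq (GRCh38.p14) windows from 250 bases before to 50 bases after the gene start were at hand for 8 of the 10 genes, not for HLA-DRA or CIITA. They were searched on both strands for ACNGATG, letters of the X box that RFX binds, and for ATTGG, the NF-Y letters of the Y box. The letters and spacing were chosen with these promoters in view, so the matches are a description. The reference alleles may differ from those of the lines, since these genes are polymorphic. Stretches of 80 bases around the matches follow, written 5′ to 3′ on the strand of the gene, with the X box letters in capitals, and likewise the Y box letters, which read CCAAT where they lie on the other strand. The first 3 hold both sets of letters in order on the strand of the gene, and the next 2 hold 1 of them there. CD74 is shown because it stayed low. Its window holds both sets of letters, but only on the other strand and not in order at the spacing given below. The ACNGATG match of CD74 lies outside the bases shown.
HLA-DRB1 (chr6:32589860-32589939, minus strand): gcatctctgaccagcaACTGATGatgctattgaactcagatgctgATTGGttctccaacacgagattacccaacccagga
HLA-DQB1 (chr6:32666711-32666790, minus strand): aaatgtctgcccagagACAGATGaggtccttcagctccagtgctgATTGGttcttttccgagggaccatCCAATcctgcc
HLA-DMA (chr6:32953143-32953222, minus strand): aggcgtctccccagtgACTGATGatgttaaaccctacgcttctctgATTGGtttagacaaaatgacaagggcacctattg
HLA-DMB (chr6:32941049-32941128, minus strand): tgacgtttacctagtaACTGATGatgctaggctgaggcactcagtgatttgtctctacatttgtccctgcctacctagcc
HLA-DPB1 (chr6:33075845-33075924, plus strand): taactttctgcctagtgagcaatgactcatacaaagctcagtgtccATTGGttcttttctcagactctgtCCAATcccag
CD74 (chr5:150412930-150413009, minus strand): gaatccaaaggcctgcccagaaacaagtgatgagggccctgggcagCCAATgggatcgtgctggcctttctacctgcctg

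In HLA-DRB1 and HLA-DQB1 the ACNGATG letters begin 29 bases before ATTGG, and in HLA-DMA 30 bases before it. Of 35116 promoter windows in the table, 7.65% hold ACNGATG and 34.6% hold ATTGG on either strand. Only 49 windows, or 0.14%, hold ACNGATG starting 20 to 40 bases before ATTGG on the same strand. Among the other genes, HLA-DQA1 has ATTGG on the strand of the gene but no ACNGATG, and neither of the 2 entries for HLA-DPA1 has a match. No match says only that these letters are not in the window.

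In Jurkat, chidamide treatment went with higher values of every classical chain and of both HLA-DM chains, and in Molt-4 with higher values of HLA-DRA, both DP chains, HLA-DQB1 and both HLA-DM chains. CIITA and CD74 stayed below 1 FPKM (a read count scaled by transcript length and library size) in all 12 libraries and were not called in either line. FPKM is a level per transcript length, so genes are set side by side on it here. For polymorphic genes, any loss of reads where the alleles of a line differ from the reference was not tested. Changes were tested with limma on log2(FPKM + 1), and a gene was called at a Benjamini-Hochberg adjusted p under 0.05. Over all 20104 genes with a value above 0 in some library, 8 of the 10 genes were called higher and 0 lower in treated Jurkat, where 25.1% of all genes were called higher and 17.1% lower. In treated Molt-4, 6 were called higher and 0 lower, where 30.5% of all genes were called higher and 16.7% lower. The median log2 change of the 10 genes was 0.71 in Molt-4, against 0.06 for all genes, and 1.48 in Jurkat, against 0.03 for all genes. In bulk RNA, more cells that express a gene and more RNA per cell cannot be told apart.

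A filter of at least 1 FPKM in 3 libraries, which 13840 genes passed, kept 7 of the 10 and left out HLA-DQA1, CD74 and CIITA. HLA-DRB1 and HLA-DMB passed through treated Jurkat alone, and HLA-DRA, HLA-DPA1 and HLA-DPB1 through treated libraries of both lines alone. HLA-DQB1 passed through treated Jurkat and 1 untreated Jurkat library. Only HLA-DMA reached 1 FPKM in every untreated library of a line. Single values below are from the filtered fit, so for these genes they are tied to high treated values. Without the filter each of the 7 genes had the same call in every comparison. In Jurkat, HLA-DRB1 then had a limma adjusted p = 2.35e-07 and HLA-DMB 1.24e-06. The counts above came from the fit without a filter. Separation of the libraries gave the same counts: every treated value lay above every untreated one for 6 of 10 genes in Molt-4, as for 35.0% of all genes, and for 8 of 10 in Jurkat, as for 29.4% of all genes. Every treated value lay below every untreated one for 0 of the 10, against 20% of all genes in Molt-4 and 19.5% in Jurkat.

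**Figure D1:**
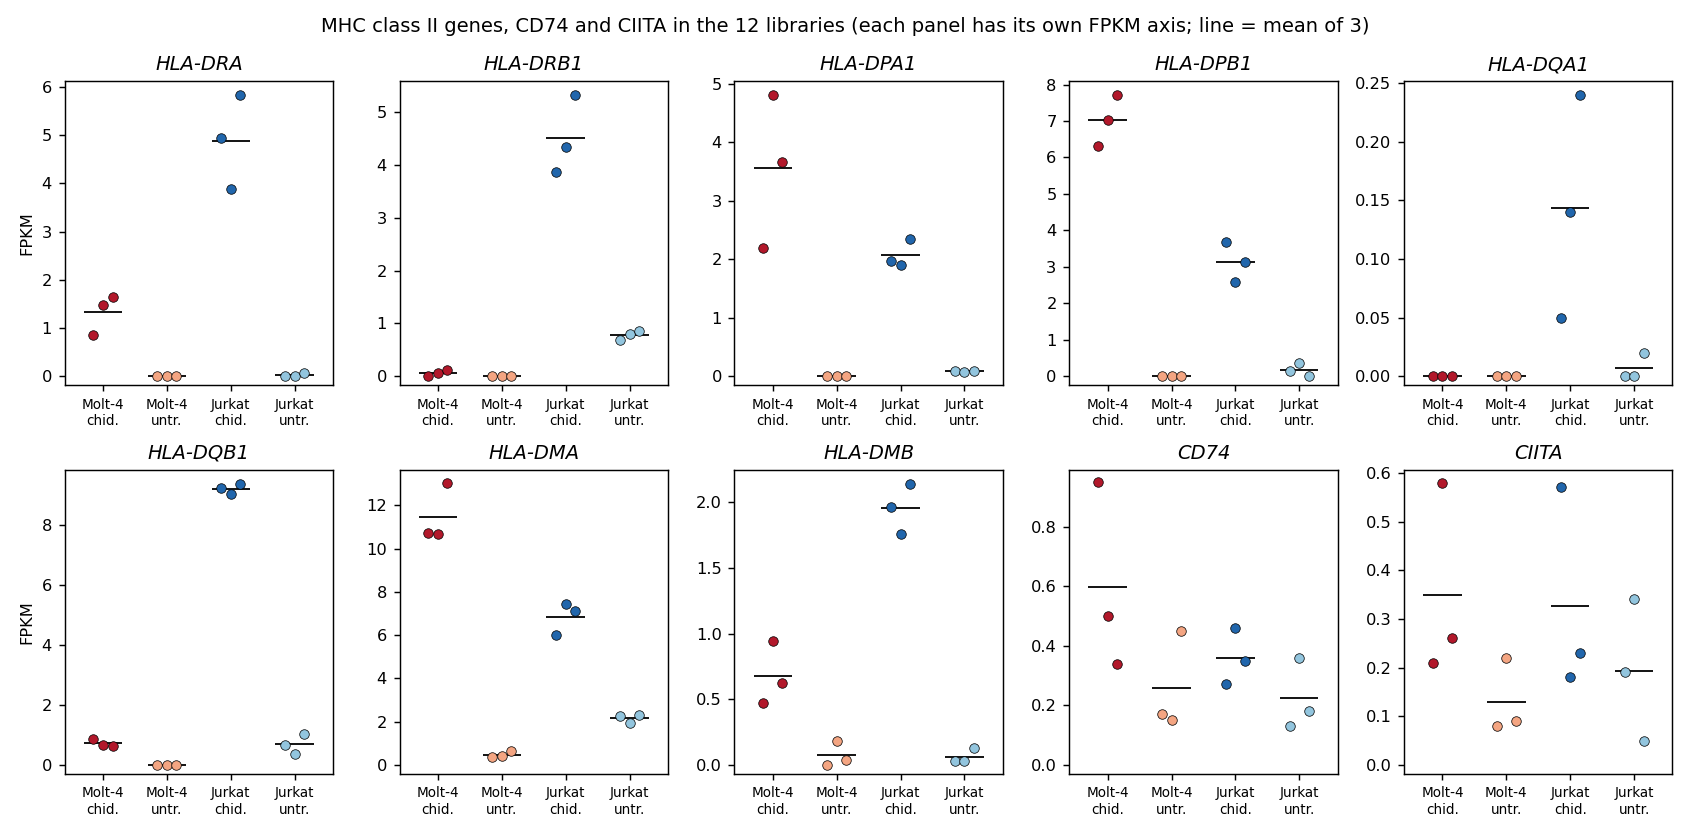
FPKM of the 10 genes in each library, by group from left to right: Molt-4 with chidamide, untreated Molt-4, Jurkat with chidamide and untreated Jurkat. Points are libraries, lines are means of 3, and each panel has its own axis; HLA-DMA reaches 13.02 FPKM in treated Molt-4, while CIITA reaches 0.58 FPKM at most.

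HLA-DRA encodes the nearly invariant alpha chain of HLA-DR. It had 0.86, 1.48 and 1.64 FPKM in treated Molt-4 and was listed at 0 in all 3 untreated Molt-4 libraries. Treated Jurkat had 4.93, 3.88 and 5.83 FPKM, against 0, 0 and 0.06 FPKM in untreated Jurkat. Treated and untreated libraries did not overlap in either line, and treated Jurkat stood above treated Molt-4. The log2 change was 1.20 ± 0.14 in Molt-4 (SE, limma adjusted p = 1.7e-05). In Jurkat it was 2.51 ± 0.14 (limma adjusted p = 3.97e-08).

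HLA-DRB1, the main and highly polymorphic DR beta chain, moved in Jurkat and hardly registered in Molt-4. Treated Molt-4 had 0, 0.06 and 0.11 FPKM, and untreated Molt-4 was listed at 0 throughout. Treated Jurkat had 3.87, 4.33 and 5.32 FPKM, against 0.69, 0.80 and 0.86 FPKM in untreated Jurkat. Every treated Jurkat library was above every untreated one, while the 2 Molt-4 groups overlapped at 0. The ratio of means in Jurkat was 5.75, with a log2 change of 1.62 ± 0.10 (limma adjusted p = 1.08e-07). For Molt-4 the log2 change was 0.08 ± 0.10 (limma adjusted p = 0.541), and it was 2.13 and called with a pseudocount of 0.01 (limma adjusted p = 0.0247).

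HLA-DRB1 has a near-identical copy in HLA-DRB5, and reads can divide between them in a way that the authors' counting decides. HLA-DRB5 had 0.64, 0.80 and 0.73 FPKM in treated Jurkat and was listed at 0 in the other 9 libraries. HLA-DRB3 and HLA-DRB4 were not analysed here.

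HLA-DPA1 and HLA-DPB1 encode the chains of HLA-DP. HLA-DPA1 had 2.20, 4.81 and 3.66 FPKM in treated Molt-4 and 0 in untreated Molt-4, and 1.97, 1.90 and 2.34 FPKM in treated Jurkat against 0.09, 0.08 and 0.09 FPKM in untreated Jurkat. Treated libraries were above untreated ones in both lines, but treated Molt-4 and treated Jurkat overlapped. The log2 change of HLA-DPA1 was 2.15 ± 0.17 in Molt-4 (limma adjusted p = 4.39e-07) and 1.50 ± 0.17 in Jurkat (limma adjusted p = 1.15e-05), where the ratio of means was 23.9.

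HLA-DPB1 was the highest classical chain in treated Molt-4, with 6.30, 7.04 and 7.71 FPKM, against 0 in untreated Molt-4. Treated Jurkat had 3.68, 2.59 and 3.12 FPKM, against 0.13, 0.36 and 0 FPKM in untreated Jurkat. Again no treated library overlapped an untreated one, and here the 3 treated Molt-4 libraries were also above the 3 treated Jurkat ones. The log2 change was 3.0 ± 0.13 in Molt-4 (limma adjusted p = 2.72e-09) and 1.83 ± 0.13 in Jurkat (limma adjusted p = 2.69e-07).

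HLA-DQA1 and HLA-DQB1 encode HLA-DQ, and their levels were far apart. HLA-DQB1 had 0.87, 0.67 and 0.64 FPKM in treated Molt-4 and 0 in untreated Molt-4. In treated Jurkat it had 9.23, 9.05 and 9.38 FPKM, the highest levels of a classical chain in any group, against 0.67, 0.35 and 1.03 FPKM in untreated Jurkat. Treated Molt-4 thus lay among the values of untreated Jurkat. The ratio of means in Jurkat was 13.5. The log2 change of HLA-DQB1 was 0.79 ± 0.13 in Molt-4 (limma adjusted p = 0.000222), a call lost under quantile normalization (limma adjusted p = 0.121). In Jurkat the log2 change was 2.62 ± 0.13 (limma adjusted p = 1.11e-08).

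The alpha chain HLA-DQA1 was listed at 0 in all 6 Molt-4 libraries. It had 0.05, 0.14 and 0.24 FPKM in treated Jurkat, against 0, 0 and 0.02 FPKM in untreated Jurkat. All values were thus far below those of its beta chain, although the treated and untreated Jurkat libraries did not overlap. The log2 change in Jurkat was 0.18 ± 0.05 in the fit without a filter (limma adjusted p = 0.0101), and the exact two-sided permutation p was 0.1, the smallest that 3 against 3 allows. HLA-DQB1-AS1, an antisense gene at HLA-DQB1, had 0.50, 0.42 and 0.19 FPKM in treated Jurkat and was listed at 0 in the other 9 libraries. No source says that counting used strand, so reads of HLA-DQB1 and its antisense partner cannot be told apart.

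HLA-DMA and HLA-DMB form HLA-DM, which removes the invariant chain fragment CLIP from class II molecules and edits their peptides. HLA-DMA was the most abundant of the 10 genes in Molt-4. It had 10.71, 10.68 and 13.02 FPKM in treated Molt-4, against 0.36, 0.40 and 0.65 FPKM in untreated Molt-4. Treated Jurkat had 6.01, 7.46 and 7.11 FPKM, against 2.24, 1.95 and 2.33 FPKM in untreated Jurkat. None of the 4 groups overlapped another. The ratio of means was 24.4 in Molt-4, with a log2 change of 3.08 ± 0.12 (limma adjusted p = 9.46e-10). Jurkat had a ratio of 3.16 and a log2 change of 1.31 ± 0.12 (limma adjusted p = 1.71e-06).

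HLA-DMB had 0.47, 0.94 and 0.62 FPKM in treated Molt-4, against 0, 0.18 and 0.04 FPKM in untreated Molt-4. Treated Jurkat had 1.96, 1.76 and 2.14 FPKM, against 0.03, 0.03 and 0.13 FPKM in untreated Jurkat. The treated libraries were above the untreated ones in both lines, and treated Jurkat was above treated Molt-4. The log2 change was 0.64 ± 0.12 in Molt-4 (limma adjusted p = 0.000504), a call lost under quantile normalization (limma adjusted p = 0.829). Jurkat had a log2 change of 1.47 ± 0.12 (limma adjusted p = 6.06e-07). The level of HLA-DMA was 22.8, 11.4 and 21.0 times that of HLA-DMB in treated Molt-4, and 3.07, 4.24 and 3.32 times in treated Jurkat.

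CD74 encodes the invariant chain, which escorts new class II dimers and blocks their groove. It had 0.95, 0.50 and 0.34 FPKM in treated Molt-4, against 0.17, 0.15 and 0.45 FPKM in untreated Molt-4. Treated Jurkat had 0.27, 0.46 and 0.35 FPKM, against 0.13, 0.36 and 0.18 FPKM in untreated Jurkat. All neighbouring groups in the order of the means overlapped. The log2 change was 0.34 in Molt-4 (95% interval 0.03 to 0.64, limma adjusted p = 0.0707, exact permutation p = 0.2). In Jurkat it was 0.16 (95% interval -0.15 to 0.46, limma adjusted p = 0.428, exact permutation p = 0.3).

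CIITA had 0.21, 0.58 and 0.26 FPKM in treated Molt-4, against 0.08, 0.22 and 0.09 FPKM in untreated Molt-4. Treated Jurkat had 0.57, 0.18 and 0.23 FPKM, against 0.19, 0.34 and 0.05 FPKM in untreated Jurkat. The groups overlapped in both lines, and in each treated group 1 library stood well above the other two. The log2 change was 0.25 in Molt-4 (95% interval -0.05 to 0.55, limma adjusted p = 0.159, exact permutation p = 0.2). In Jurkat it was 0.15 (95% interval -0.15 to 0.45, limma adjusted p = 0.433, exact permutation p = 0.5).

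These intervals do not show that CIITA and CD74 were the same with and without chidamide. The ratio of treated to untreated means was 2.69 for CIITA and 2.32 for CD74 in Molt-4, and 1.69 and 1.61 in Jurkat, but the depth is unknown, and no counting error can be given for values this low. Under quantile normalization the sign of all 4 changes was negative. At its group means, CIITA lay above 26.2% to 32.4% of the 20104 genes.

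**Figure D2:**
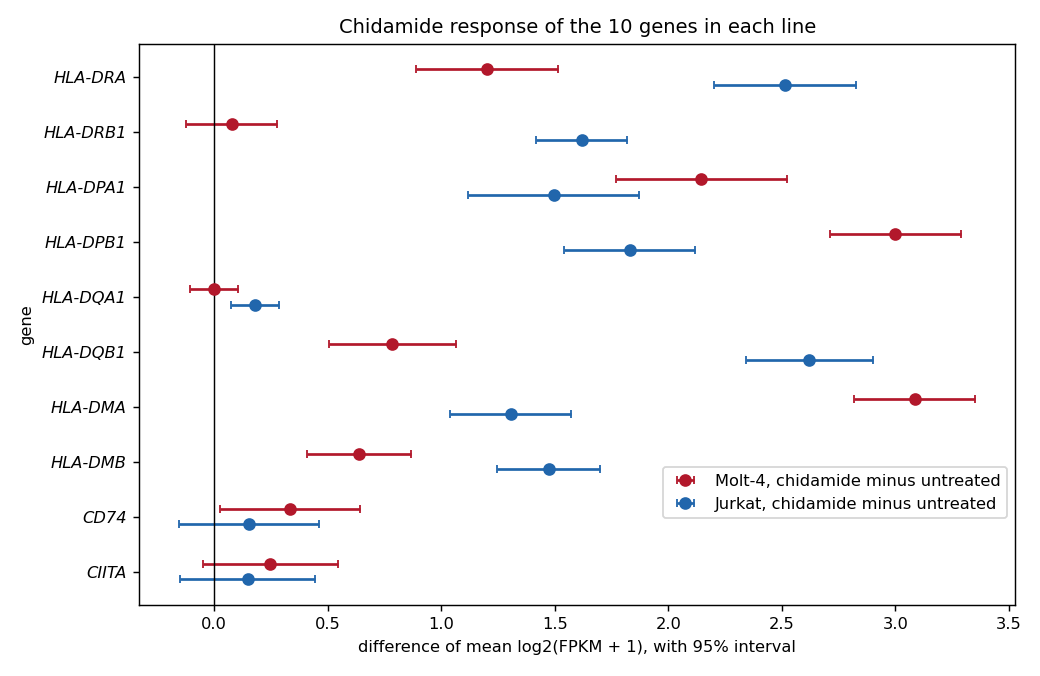
Difference of mean log2(FPKM + 1), chidamide minus untreated, for the 10 genes, with Molt-4 above Jurkat for each gene. Bars are 95% intervals from the limma fit without a filter on low values. The intervals of CIITA in both lines, of CD74 in Jurkat, and of HLA-DRB1 and HLA-DQA1 in Molt-4 include 0.

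In the deposited FPKM the lines differed in which isotype made up the class II signal. Whether allele differences from the reference had a part in these shares was not tested. The 6 classical chains summed to 10.23, 14.06 and 13.76 FPKM in treated Molt-4 and to 0 in untreated Molt-4. In Jurkat the sum was 23.73, 21.89 and 26.23 FPKM with chidamide, against 1.58, 1.59 and 2.06 FPKM untreated. In treated Molt-4 the DP chains made up 83.1%, 84.3% and 82.6% of the sum, the DR chains 8.41%, 10.95% and 12.7%, and the DQ chains 8.50%, 4.77% and 4.65%. In treated Jurkat the DP chains made up 23.8%, 20.5% and 20.8%, the DR chains 37.1%, 37.5% and 42.5%, and the DQ chains 39.1%, 42.0% and 36.7%. The share of DP was thus the largest of the 3 in each treated Molt-4 library and the smallest of the 3 in each treated Jurkat library. For HLA-DQ nearly all of the sum was the beta chain.

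**Figure D3:**
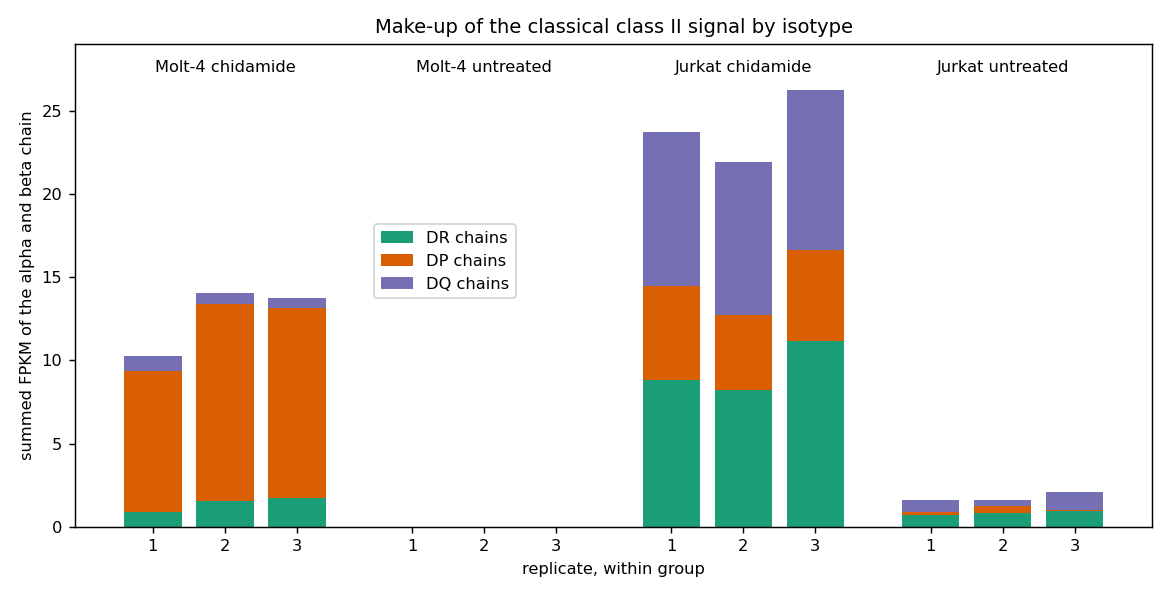
Summed FPKM of the alpha and beta chain of each isotype, stacked by library (replicates 1 to 3 of Molt-4 with chidamide, untreated Molt-4, Jurkat with chidamide and untreated Jurkat). Untreated Molt-4 is at 0; DP fills most of each treated Molt-4 bar, between 82.6% and 84.3%, and 20.5% to 23.8% of each treated Jurkat bar.

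The difference of the responses, Molt-4 minus Jurkat, was tested directly. Of the 10 genes, 2 responded more in Molt-4, against 15.5% of all genes, and 4 responded less, against 9.01% of all genes. With the filter the shares of all genes were 19.8% and 12.1%. HLA-DMA responded more in Molt-4, by 1.78 ± 0.17 on the log2 scale (limma adjusted p = 8.18e-06). HLA-DPB1 also did, by 1.17 ± 0.19 (limma adjusted p = 0.000514). For these 2 genes the call held under every alternative tried. HLA-DPA1 differed by 0.65 ± 0.24 (95% interval 0.13 to 1.17, limma adjusted p = 0.056), and the call was gained with a pseudocount of 0.1 (limma adjusted p = 0.00641) or 0.01 (0.000104), under median-of-ratios scaling (0.0385) and quantile normalization (0.0423), and without treated Molt-4 replicate 1 (0.00201).

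The genes with a smaller response in Molt-4 on this scale were HLA-DRA (-1.31 ± 0.20, limma adjusted p = 0.000434), HLA-DRB1 (-1.54 ± 0.15, 1.03e-05), HLA-DQB1 (-1.84 ± 0.18, 1.4e-05) and HLA-DMB (-0.84 ± 0.16, 0.00224). These differences depended on the pseudocount. Of the 4 genes, 3 were listed at 0 in untreated Molt-4, and HLA-DMB had 0, 0.18 and 0.04 FPKM there. With a pseudocount of 0.1, HLA-DQB1 (limma adjusted p = 0.265) and HLA-DMB (0.0668) were no longer called. With one of 0.01, HLA-DRA (limma adjusted p = 0.486), HLA-DRB1 (0.821) and HLA-DMB (0.535) were no longer called, and HLA-DQB1 turned to 2.33 in favour of Molt-4 (limma adjusted p = 0.00552). The FPKM values in the libraries involve no pseudocount.

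Between treated Molt-4 and treated Jurkat, 3 of the 10 genes were higher in Molt-4, against 27.2% of all genes, and 5 were lower, against 28.8% of all genes (31.7% and 37.5% with the filter). HLA-DPB1 was 2.24 times as high in treated Molt-4 (log2 difference 0.96 ± 0.13, limma adjusted p = 3.52e-05), and HLA-DMA 1.67 times (0.67 ± 0.12, limma adjusted p = 0.000278). HLA-DPA1 was 1.72 times as high (0.53 ± 0.17, limma adjusted p = 0.0141), a call lost without treated Molt-4 replicate 2 (limma adjusted p = 0.0649) and under quantile normalization (0.176). With a pseudocount of 0.01, HLA-DPB1 (limma adjusted p = 0.305), HLA-DPA1 (0.0747) and HLA-DMB (0.137) were not called in this comparison. HLA-DQB1 was lower in treated Molt-4, at 0.0788 times the level in treated Jurkat (log2 difference -2.57 ± 0.13, limma adjusted p = 3.95e-09). HLA-DRB1 (-2.37 ± 0.10, 1.1e-09), HLA-DRA (-1.34 ± 0.14, 4.32e-06) and HLA-DMB (-0.82 ± 0.12, 4.74e-05) were lower as well. The fifth was HLA-DQA1, at 0 in Molt-4. CD74 (0.22, limma adjusted p = 0.216 without a filter) and CIITA (0.03, 0.886) were not called.

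Without chidamide, 0 of the 10 genes were higher in Molt-4, against 20.4% of all genes, and 3 were lower, against 26.2% of all genes (27.9% and 37.5% with the filter). These were HLA-DMA (-1.11 ± 0.12, limma adjusted p = 3.79e-06), HLA-DRB1 (-0.83 ± 0.10, 1.78e-05) and HLA-DQB1 (-0.73 ± 0.13, 0.000315). With a pseudocount of 0.1 or 0.01, HLA-DPA1 and HLA-DPB1 were called lower too, and under quantile normalization these and HLA-DMB. Untreated Molt-4 had values above 0 for 4 of the 10 genes, HLA-DMA, HLA-DMB, CD74 and CIITA. Untreated Jurkat had some value for all 10 in at least 1 library. Of 20 housekeeping genes the lowest value in any library was 17.9 FPKM and none was at 0. Genes at such levels cannot show how well values under 1 FPKM were measured, since the depth is unknown.

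The factors that bind class II promoters, and their coactivators, had higher levels than CIITA in every group. Of 12 such genes 11 were analysed. In treated Molt-4, 1 rose and 6 fell, and in treated Jurkat 3 rose and 5 fell. Under quantile normalization the counts were 0 and 6 in Molt-4 and 1 and 5 in Jurkat, and under median-of-ratios scaling 2 and 6 in Jurkat. Over the 13840 genes of the filtered fit, 35.4% rose and 24.6% fell in Molt-4, and 30.9% rose and 25.4% fell in Jurkat. The list had a median log2 change of -0.22 in both lines, against 0.08 in Molt-4 and 0.04 in Jurkat for all genes.

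RFX5, the DNA-binding subunit of the RFX complex, had 48.33, 45.52 and 47.72 FPKM in treated Molt-4, against 60.57, 52.20 and 55.08 FPKM in untreated Molt-4. Treated Jurkat had 46.94, 52.29 and 44.44 FPKM, against 72.37, 85.35 and 86.10 FPKM in untreated Jurkat. RFX5 was lower in every treated library than in every untreated one of the same line. The log2 change was -0.24 ± 0.08 in Molt-4 (limma adjusted p = 0.0258), a call lost with equal totals per library (limma adjusted p = 0.0865) and under quantile normalization (0.0824). In Jurkat it was -0.75 ± 0.08 (limma adjusted p = 1e-05). RFXAP, the RFX-associated protein, averaged 7.20 FPKM in treated Molt-4, against 11.99 FPKM in untreated Molt-4 (log2 change -0.66, limma adjusted p = 6.29e-05). In Jurkat it averaged 11.16 FPKM with chidamide, against 14.95 FPKM untreated (log2 change -0.39, limma adjusted p = 0.00369).

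RFXANK, the third RFX subunit, fell by 0.22 in Molt-4 (limma adjusted p = 0.00399) and by 0.31 in Jurkat (limma adjusted p = 0.000398). Among the NF-Y subunits, NFYC fell by 0.31 in Molt-4 (limma adjusted p = 0.0012) and by 0.35 in Jurkat (limma adjusted p = 0.000536). NFYB fell by 0.31 in Molt-4 (limma adjusted p = 0.0118) and was not called in Jurkat (-0.22, 0.0589). NFYA went the other way in Jurkat, with a rise of 0.29 (limma adjusted p = 0.000673), and was not called in Molt-4 (0.03, 0.668). CARM1, an arginine methyltransferase and transcriptional coactivator, fell by 0.25 in Molt-4 (limma adjusted p = 0.00951) and by 0.74 in Jurkat (3.5e-06). KAT2B, a histone acetyltransferase that acts with CIITA, rose by 0.43 in Molt-4 (limma adjusted p = 0.00802) and by 0.38 in Jurkat (limma adjusted p = 0.0155), calls lost in both lines under quantile normalization (0.492 in Molt-4 and 0.154 in Jurkat).

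Of 16 genes that act on CIITA, 13 passed the filter. In Molt-4, 7 rose and 1 fell, or 7 and 3 under quantile normalization. In Jurkat 8 rose and 3 fell, or 7 and 4 under quantile normalization. The shares of all genes in the filtered fit were 35.4% and 24.6% in Molt-4 and 30.9% and 25.4% in Jurkat. SPI1, which encodes the transcription factor PU.1 of myeloid and B cells, had 11.40, 12.02 and 13.62 FPKM in treated Molt-4, against 1.41, 1.06 and 1.32 FPKM in untreated Molt-4 (log2 change 2.56 ± 0.10, limma adjusted p = 9.56e-10). In Jurkat SPI1 was at or near 0 in both groups. IRF8, an interferon regulatory factor of B and dendritic cells, averaged 2.66 FPKM in treated Molt-4, against 0.33 FPKM in untreated Molt-4 (log2 change 1.44, limma adjusted p = 4.2e-05). It averaged 1.40 FPKM in treated Jurkat, against 4.87 FPKM in untreated Jurkat (log2 change -1.31, limma adjusted p = 0.000107). The 2 responses differed by 2.75 (limma adjusted p = 1.38e-05).

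SOCS1, a feedback inhibitor of JAK signalling, rose in both lines, by 1.62 in Molt-4 (limma adjusted p = 1.24e-06) and by 1.00 in Jurkat (limma adjusted p = 8.33e-05). JAK1, a kinase of the interferon receptors, rose by 0.65 in Molt-4 (limma adjusted p = 0.000638) and by 1.18 in Jurkat (5.64e-06). IRF2 rose by 0.77 in Molt-4 (limma adjusted p = 0.000956) and by 0.51 in Jurkat (0.0139). PRDM1, a repressor of CIITA in plasma cells, rose by 0.42 in Molt-4 (limma adjusted p = 0.0282) and by 1.39 in Jurkat (7.35e-06). Under quantile normalization its call in Molt-4 was lost (-0.24, limma adjusted p = 0.188). PRDM1 reached 1 FPKM only in treated Jurkat.

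IRF1, an interferon-induced activator of CIITA, and IFNG, which encodes interferon gamma, were singled out after their values were seen. The same holds for IFNGR1, IFNGR2 and USF2 of this list. IRF1 averaged 39.97 FPKM in treated Molt-4, against 37.23 FPKM in untreated Molt-4 (limma adjusted p = 0.242), and 103.5 FPKM in treated Jurkat, against 62.39 FPKM in untreated Jurkat (log2 change 0.72, limma adjusted p = 5.66e-06). IFNG had 0, 0.23 and 0 FPKM in treated Molt-4 and 0.51, 0.64 and 0.41 FPKM in treated Jurkat, and was listed at 0 in all 6 untreated libraries. IFNGR1, a chain of the interferon gamma receptor, rose by 0.75 in Molt-4 (limma adjusted p = 1.7e-05) and by 0.75 in Jurkat (1.9e-05). Its partner IFNGR2 fell by 0.62 in Jurkat (limma adjusted p = 0.000118). In Molt-4 IFNGR2 was not called (-0.09, 0.396), but was called lower under quantile normalization (0.00484). USF2 averaged 87.5 FPKM in treated and 109.9 FPKM in untreated Molt-4, and 69.6 FPKM in treated and 119.7 FPKM in untreated Jurkat.

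**Figure D4:**
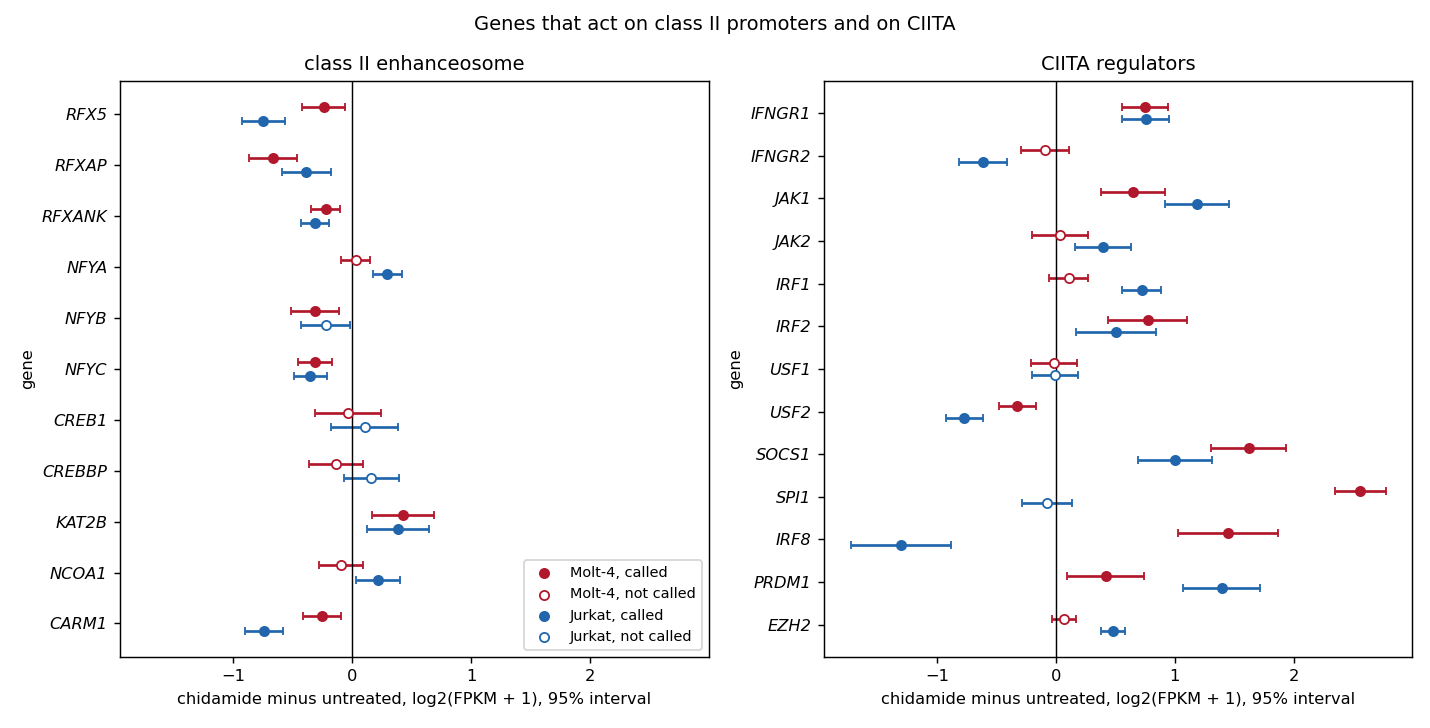
Difference of mean log2(FPKM + 1), chidamide minus untreated, for the 11 tested promoter-binding factors and coactivators (left) and the 13 tested genes that act on CIITA (right), with Molt-4 above Jurkat for each gene. Bars are 95% intervals, filled points are called at an adjusted p under 0.05 and open points are not; RFX5, RFXAP and RFXANK lie below 0 in both lines, and SPI1 and IRF8 lie far apart between the lines.

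Other class II genes moved as well. HLA-DOA, a chain of HLA-DO that restrains HLA-DM, had 2.14, 2.40 and 2.10 FPKM in treated Molt-4 and 0 in untreated Molt-4 (log2 change 1.68 ± 0.10, limma adjusted p = 2.8e-08). It had 7.62, 7.05 and 6.30 FPKM in treated Jurkat, against 2.19, 2.42 and 2.74 FPKM in untreated Jurkat (log2 change 1.21 ± 0.10, limma adjusted p = 6.34e-07). Its partner HLA-DOB was called in Jurkat (log2 change 0.59, limma adjusted p = 0.00905), a call lost under quantile normalization (0.784), and not in Molt-4 (0.07, limma adjusted p = 0.718), where it was called lower under quantile normalization (-0.64, 0.00592). Of this list of 10 genes and pseudogenes, 7 were analysed and 2 passed the filter.

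Of 14 genes for cleavage of the invariant chain and antigen processing, 13 passed the filter. In Molt-4, 7 rose and 1 fell, or 6 and 2 under median-of-ratios scaling. In Jurkat 8 rose and 2 fell, or 7 and 2 under median-of-ratios scaling. For all genes in the filtered fit the shares were 35.4% and 24.6% in Molt-4 and 30.9% and 25.4% in Jurkat. LGMN, an asparagine endopeptidase of antigen processing, rose in both lines, by 1.35 in Molt-4 (limma adjusted p = 1.18e-07) and by 1.01 in Jurkat (limma adjusted p = 1.84e-06). The lysosomal protease genes CTSB and CTSL rose in Molt-4, by 2.38 (limma adjusted p = 1.38e-10) and 2.03 (5.44e-10). CTSB rose by 0.38 in Jurkat (limma adjusted p = 0.000603), and CTSL was listed at 0 in all 6 Jurkat libraries. CTSH rose by 1.04 in Molt-4 (limma adjusted p = 0.000776) and by 1.69 in Jurkat (1.98e-05), and CTSD by 0.45 in Molt-4 (1.77e-05) and by 0.51 in Jurkat (7.12e-06). SPPL2A, the intramembrane protease that clears the last invariant chain fragment, fell by 0.51 in Jurkat (limma adjusted p = 0.000379) and was not called in Molt-4 (-0.05, 0.636). CTSS, the main invariant chain protease of B and dendritic cells, did not pass the filter and reached 0.61 FPKM at most.

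MHC class I presentation genes were in part called higher too. Of 14 tested, 8 rose and 5 fell in Molt-4, or 8 and 3 with equal totals per library. In Jurkat 9 rose and 2 fell, or 9 and 1 with equal totals per library. Among all genes of the filtered fit the shares were 35.4% and 24.6% in Molt-4 and 30.9% and 25.4% in Jurkat. The HLA class I genes share much of their sequence, so the division of reads between them is uncertain. HLA-B averaged 192.0 FPKM in treated Molt-4, against 3.90 FPKM in untreated Molt-4 (log2 change 5.44, limma adjusted p = 1.54e-08). In Jurkat it averaged 285.5 FPKM with chidamide, against 49.83 FPKM untreated (log2 change 2.50, limma adjusted p = 1.53e-05). HLA-F and HLA-E rose in both lines, by 2.57 and 1.89 in Molt-4 and by 2.56 and 1.31 in Jurkat. HLA-C rose by 1.58 in Molt-4 and by 1.06 in Jurkat, and PSMB10, an immunoproteasome subunit, fell by 1.10 in Molt-4 and by 1.17 in Jurkat. NLRC5, the class I counterpart of CIITA and singled out after its values were seen, had 7.14, 10.36 and 8.38 FPKM in treated Molt-4, against 3.36, 2.71 and 4.30 FPKM in untreated Molt-4 (log2 change 1.11 ± 0.21, limma adjusted p = 0.000722). It had 19.03, 14.19 and 17.90 FPKM in treated Jurkat, against 6.83, 9.93 and 13.49 FPKM in untreated Jurkat (log2 change 0.74 ± 0.21, limma adjusted p = 0.0108).

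Costimulatory ligands accompany peptide presentation on antigen-presenting cells. Of 8 tested, 5 rose and 0 fell in Molt-4, a split of 4 and 3 under quantile normalization. In Jurkat 4 rose and 1 fell. Over all genes of the filtered fit the shares were 35.4% and 24.6% in Molt-4 and 30.9% and 25.4% in Jurkat. TNFSF9, the ligand of 4-1BB, rose by 2.19 in Molt-4 (limma adjusted p = 1.02e-09) and by 2.13 in Jurkat (1.99e-09). CD70 rose by 2.20 in Molt-4 (limma adjusted p = 2.75e-07) and by 1.45 in Jurkat (1.19e-05). CD83, which stabilises class II on dendritic cells, rose by 0.85 in Molt-4 (limma adjusted p = 2.53e-07) and by 2.03 in Jurkat (2.86e-10). CD40 rose by 1.39 in Molt-4 (limma adjusted p = 2.14e-06) and by 0.56 in Jurkat (0.00285). TNFSF4 fell by 0.83 in Jurkat (limma adjusted p = 0.00135) and was not called in Molt-4 (0.13, 0.534).

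Markers of cells that make class II at all times moved too. Of 12 B-cell markers 11 were analysed, and 6 passed the filter and were tested. FCRLA reached 1 FPKM only in treated Molt-4, so the filter kept it through that group alone. In Molt-4, 5 rose and 0 fell, or 5 and 1 under quantile normalization, and the list summed to 45.6 to 48.1 FPKM with chidamide, against 9.31 to 12.5 FPKM untreated. In Jurkat 0 rose and 2 fell, or 4 under quantile normalization. The sum in Jurkat was 18.4 to 22.0 FPKM with chidamide, against 37.0 to 45.7 FPKM untreated. Of all genes in the filtered fit, 35.4% rose and 24.6% fell in Molt-4, and 30.9% rose and 25.4% fell in Jurkat. The B-cell genes FCRLA, CD79A, CR2 and CD79B rose in Molt-4, by 2.27, 1.90, 1.77 and 1.41, while CD79A and BLK fell in Jurkat, by 1.17 and 1.05. MS4A1, which encodes CD20, was listed at 0 in all 6 Molt-4 libraries, and PAX5 did not pass 0.14 FPKM in any library.

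Of 16 monocyte and dendritic cell markers 8 passed the filter and were tested, and SPI1 is on this list as well. LYZ and ITGAX reached 1 FPKM only in treated Molt-4, so the filter kept them through that group alone. Of all genes in the filtered fit, 35.4% rose and 24.6% fell in Molt-4, and 30.9% rose and 25.4% fell in Jurkat. In Molt-4, 6 rose and 1 fell, and the sum was 606.5 to 648.7 FPKM with chidamide, against 498.3 to 574.5 FPKM untreated. AIF1 made up most of this sum, averaging 513.3 FPKM in treated and 507.5 FPKM in untreated Molt-4. It was not called there (limma adjusted p = 0.790), but was called higher under quantile normalization (0.0239). LYZ, the lysozyme gene of myeloid cells, averaged 62.9 FPKM in treated Molt-4, against 0.68 FPKM in untreated Molt-4 (log2 change 5.26, limma adjusted p = 7.71e-11). CD68 and ITGAX rose in Molt-4 by 2.11 and 1.85, and CD68 rose in Jurkat by 0.98. CD1C was the gene that fell in Molt-4, by 1.10. CD14, a defining monocyte marker, had 0.21, 0.27 and 0.38 FPKM in treated Molt-4, against 0, 0.35 and 0.95 FPKM in untreated Molt-4. In Jurkat 2 rose and 2 fell, CD1C with a log2 change of -2.57 and AIF1 with -0.78. Under quantile normalization 3 fell. The list had a sum of 225.5 to 230.5 FPKM with chidamide, against 423.4 to 424.6 FPKM untreated. Most of it was AIF1, which averaged 212.8 FPKM with chidamide, against 365.0 FPKM untreated. The part of either marker list in the class II changes was not tested.

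The T-cell identity of the libraries was visible throughout. CD3D, a chain of the T-cell receptor complex, had at least 320.5 FPKM in every library. Of 12 T-cell markers tested, 6 rose and 5 fell in Molt-4, where 35.4% of all tested genes rose and 24.6% fell. In Jurkat 3 rose and 8 fell, or 2 and 8 under quantile normalization. There 30.9% of all tested genes rose and 25.4% fell. The T-cell list summed to 728.7 to 762.1 FPKM in treated Molt-4, against 855.8 to 939.6 FPKM in untreated Molt-4. In Jurkat its sum was 1270.5 to 1334.0 FPKM with chidamide, against 2078.8 to 2117.3 FPKM untreated. CD28 rose by 3.26 in Molt-4 (limma adjusted p = 9.56e-10) and by 1.03 in Jurkat (2.03e-05). CD8A rose by 0.96 in Molt-4 (limma adjusted p = 1.41e-06) and by 0.54 in Jurkat (0.000187), where the call was lost under quantile normalization (0.909). CD3G fell by 0.84 in Molt-4 (limma adjusted p = 5.59e-06) and by 1.12 in Jurkat (5.5e-07). CD3E fell by 0.56 in Molt-4 (limma adjusted p = 1.57e-06) and by 1.10 in Jurkat (6.9e-09). CD247 rose by 0.29 in Molt-4 (limma adjusted p = 0.000736) and fell by 1.34 in Jurkat (3.26e-09). CD7 rose by 0.72 in Molt-4 (limma adjusted p = 1.72e-05) and fell by 1.30 in Jurkat (1.38e-07). CD4 rose by 1.06 in Molt-4 (limma adjusted p = 1.69e-05) and fell by 0.90 in Jurkat (7.47e-05).

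The genes most like the 3 class II genes of widest range were sought by the root mean square difference of log2(FPKM + 1), centred on each gene's mean, over the 12 libraries. For HLA-DQB1, whose group means span 3.35, they were CX3CR1 (0.289), CD83 (0.298) and KIAA1324 (0.334). For HLA-DMA, with a span of 3.08, they were MAPT (0.217), CDC42EP3 (0.259) and PTPRF (0.280). For HLA-DPB1, with a span of 3.0, they were CREB3L3 (0.113), JUN (0.164) and NES (0.221). CREB3L3 averaged 10.3 FPKM in treated Molt-4, 0.487 FPKM in untreated Molt-4, 5.24 FPKM in treated Jurkat and 0.633 FPKM in untreated Jurkat. The members themselves were not eligible, and no other class II gene was among the 9. Likeness over the 12 libraries describes only changes of level that are alike in pattern and size.

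Over all genes the libraries summed to 698435 to 869059 FPKM, with 11643 to 13228 genes at 1 FPKM or more. Pairs of libraries of a group correlated at 0.994 to 0.997 on the log2 scale. Untreated Jurkat replicate 3 stood somewhat apart: the SD of log2 ratios was 0.322 and 0.327 against the other two of its group, and 0.203 to 0.231 in all other pairs. Without it the number of class II genes called in each treatment comparison did not change.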

How the data were processed

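RNA sequencing libraries of Jurkat and Molt-4 were analysed as 4 groups of 3. The letters J and M in the titles were read as these lines, the only ones the growth protocol names. The authors deposited FPKM per gene. Per the submitters' processing notes they used STAR, HTSeq and DESeq2 with hg19. Versions, strand setting and the step that gave FPKM are not given in the sources used here. FPKM holds no counts, so depth is unknown and no counting interval is given. Low values were whole multiples of a fitted step, within 0.15, for 38.5% of 6988 values only, so reads were not recovered.

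Values were taken as log2(FPKM + 1), which understates changes of low genes. Genes with at least 1 FPKM in 3 libraries (13840) entered limma 3.58.1 in R 4.3.3 (1 mean per group, eBayes with trend, 8 residual degrees of freedom), with Benjamini-Hochberg adjustment over all genes in each of 5 comparisons. Counts over the 10 genes came from the same fit on all 20104 genes above 0. Genes left out by the filter also had an exact two-sided permutation test. The model was tested on simulated data. No p-value was adjusted over a list, and no list was tested as a set.

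The members, lists and alternatives were chosen with earlier results of these data known. The rule named all 10 genes, up to 4 called genes of each other list with the largest change in each line, and the 3 genes most like each of the 3 members of widest range. Added after their values were seen were RFX5 and RFXANK in Molt-4, RFXANK and NFYC in Jurkat, NFYA, and HLA-DOB in Molt-4. So were IRF1, IFNG, IFNGR1, IFNGR2, USF2, NLRC5, CTSS, CTSL in Jurkat, CD3D, HLA-DRB5 and HLA-DQB1-AS1. Single markers listed near 0, and the values of named genes in the other line, were also added in this way. Alternatives were pseudocounts of 0.1 and 0.01, no filter, at least 5 FPKM, median-of-ratios scaling, quantile normalization, totals of 1000000, a fit per comparison, a robust variance prior, a replicate block, a 2-fold change as well, and each library left out. EP300, HLA-DRB3, HLA-DRB4, HLA-DPA2 and 1 B-cell marker were not analysed here. A gene of the list of genes that act on CIITA is not reported here and was left out of its counts.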

Additional observations from a re-analysis of the deposited data

Results flagged for a closer look

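The chidamide responses of the 2 lines were compared in the test of the difference itself (Molt-4 minus Jurkat, limma). In the fit without a filter, 2 of the 10 class II genes responded more in Molt-4, against 15.5% of all genes, and 4 responded less, against 9.01% of all genes. The values that follow are from the filtered fit. HLA-DRB1 and HLA-DMB entered it through treated Jurkat alone, and HLA-DRA and HLA-DPB1 through treated libraries of both lines alone. HLA-DMA differed by 1.78 and HLA-DPB1 by 1.17 on the log2 scale, with the larger response in Molt-4. HLA-DRA differed by -1.31, HLA-DRB1 by -1.54, HLA-DQB1 by -1.84 and HLA-DMB by -0.84, with the larger response in Jurkat on log2(FPKM + 1). With a pseudocount of 0.01 none of these last 4 kept its call in that direction.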

How the results depend on the processing

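Counts of class II genes here are from the filtered fit, which tested 7 of the 10, so that in treated Jurkat 7 were called higher and not 8. HLA-DRA, HLA-DPA1, HLA-DPB1 and HLA-DMA kept their calls in both lines, and HLA-DRB1, HLA-DQB1 and HLA-DMB theirs in Jurkat, under each alternative in which they were tested. Pseudocounts: of class II genes with a smaller response in Molt-4 (4 in the report) 2 were called at 0.1 and 0 at 0.01, of those with a larger one (2) 4 were called at 0.01, of those lower in untreated Molt-4 than in untreated Jurkat (3) 5 were called at 0.1 and at 0.01, and of those higher in treated Molt-4 than in treated Jurkat (3) 1 was called at 0.01. HLA-DQB1 turned to 2.33 and HLA-DMB, between untreated lines, to -0.41 at 0.01. At least 5 FPKM left 3 of the 10 genes: 3 rose in Molt-4 and 3 in Jurkat, 1 had a smaller response in Molt-4 and 1 was lower in treated Molt-4. With a 2-fold change as well, HLA-DQB1 and HLA-DMB lost their calls in Molt-4, 0 were higher in treated Molt-4 than in treated Jurkat and 1 was lower in untreated Molt-4. Under quantile normalization 6 were lower in untreated Molt-4, HLA-DMB between untreated lines was -0.27, HLA-DRB1 in Molt-4 was -0.0493, CD74 was -0.0900 in Molt-4 and -0.17 in Jurkat, and CIITA was -0.0679 in Molt-4 and -0.17 in Jurkat. It shifted the median of all genes in Molt-4 to -0.10, against 0.08, and split the calls into 3540 higher and 5039 lower in Molt-4, against 4903 and 3401, and 3589 and 4039 in Jurkat, against 4277 and 3509. With equal totals the split in Jurkat was 4735 and 2743. With a 2-fold change as well 1713 rose and 185 fell in Molt-4, and 1172 rose and 347 fell in Jurkat. The causes of these shifts were not tested.

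Leaving out each library in turn, 5 to 6 of the genes were called higher in Molt-4 and 5 to 7 in Jurkat, 2 to 3 had a larger and 2 to 4 a smaller response in Molt-4, 2 to 3 were higher and 2 to 4 lower in treated Molt-4 than in treated Jurkat, and 2 to 3 were lower in untreated Molt-4. The low ends came without 1 treated Jurkat library, when only 5 of the 10 genes pass the filter, except for those higher in treated Molt-4, where HLA-DPA1 was lost without treated Molt-4 replicate 2, and for the larger responses, where 2 is also the count with all libraries. Between untreated lines, HLA-DMB ranged between -0.0589 (untreated Molt-4 replicate 2 left out) and 0.0605 and was -0.0110 with untreated Jurkat replicate 1 or 2 left out, and HLA-DRA ranged between -0.0420 and 0 (untreated Jurkat replicate 3 left out). The changes of CD74 lay between 0.18 and 0.45 in Molt-4 and 0.10 and 0.23 in Jurkat, and those of CIITA between 0.13 and 0.32 in Molt-4 and 0.02 and 0.24 in Jurkat.

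No link between libraries of equal replicate number was seen: deviations of same-numbered treated and untreated libraries correlated between -0.0384 and 0.0408. Such values cannot show that the libraries were not paired, since the labels do not say how the replicates were made. With the replicate number as a block, 6 of the 7 class II genes in the filtered fit were called higher in Molt-4 and 7 in Jurkat, the counts of that fit without the block, and no other call on these genes changed. Unknown depth limits what can be said of genes under 1 FPKM.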
